A study of Mus musculus with 12 samples.

Results

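Colony-stimulating factors are secreted proteins that keep myeloid cells alive, make them divide and steer what they become. The 7 genes followed here were the ligands Csf1 and Il34, their shared receptor Csf1r, the granulocyte-macrophage colony-stimulating factor receptor chain Csf2ra, the beta chains Csf2rb and Csf2rb2, and the granulocyte colony-stimulating factor receptor Csf3r. They were chosen as a named gene family, with earlier results of these data known. The ligand genes Csf2 and Csf3 were not among them. Both were too low to test in either set and are given below with the pathway list. Each of the 7 symbols was matched to its mouse Ensembl identifier. This gave 7 of 35697 genes in the count table of 2018 and 7 of 55637 in that of 2022. RNA-seq had been done on pericontusional brain tissue of adult male C57BL/6J mice weighing 20 to 25 g, with 3 libraries per group. In the 2018 set, mice with TBI were compared at 7 days with sham-operated mice, which went through the same surgery except for the blow. TBI was made by controlled cortical impact (CCI), a piston strike on the exposed cortex, with a 3 mm tip, a velocity of 1.5 m/s, a depth of 1.5 mm and a dwell time of 100 ms. In the 2022 set all mice had TBI, and mice given zileuton were compared with injured mice that the study calls vehicle-treated, although the labels name only their injury. Zileuton, an inhibitor of 5-lipoxygenase, was injected intraperitoneally in corn oil at 10 mg/kg each day after TBI. The library names put every zileuton mouse at day 7, whereas the source labels give 7, 8 and 9 days, so the exact day is uncertain. The sequencing sets of 2018 and 2022 each held 1 comparison, and levels were not compared across them. The sources do not say whether each library came from 1 mouse, and the p-values measure the spread between these libraries.

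As background, CSF1 and IL-34 are the ligands of CSF1R, a receptor tyrosine kinase on which microglia depend for survival. In the forebrain IL-34 is made mainly by neurons, and CSF1 mainly by glia. Receptors of the other branch pair a ligand-specific alpha chain with a signalling beta chain. CSF2RA is the alpha chain for granulocyte-macrophage colony-stimulating factor, CSF2RB is the beta chain shared by the receptors for that factor, interleukin-3 and interleukin-5, and CSF2RB2 is a mouse beta chain used for interleukin-3. CSF3R, a single-chain receptor, is best known from neutrophils and their precursors.

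In the GRCm38 build the ligand genes lay on the minus strand, Csf1 at chr3:107741048-107760469 and Il34 at chr8:110741829-110805924. Csf2ra lay at chr19:61223957-61228429 on the minus strand and Csf3r at chr4:126024550-126044440 on the plus strand. The beta chain genes were neighbours, Csf2rb2 at chr15:78282507-78305721 on the minus strand and Csf2rb at chr15:78325752-78353847 on the plus strand, with 20030 bases between them. Il34 overlapped the antisense genes Gm15894 and Gm15895. Whether strand was used in counting is not given in the sources used here, so reads of genes on opposite strands cannot be told apart there.

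Csf2rb and Csf2rb2 are near-identical copies, and this bears on every value given for either of them. Their coding sequences, 2688 and 2634 bases long, were 95.2% identical over 2628 aligned bases, with 125 differences. Of the windows of 100 bases in the Csf2rb coding sequence, 11.0% were also present in Csf2rb2, and of windows of 50 bases 26.0% were. The longest shared stretch, 242 bases at coding positions 2083 to 2324 in exon 14 of both genes, is shown in capitals. It is printed with 12 flanking bases on each side. A read that falls wholly within it does not by itself tell the genes apart.
Csf2rb: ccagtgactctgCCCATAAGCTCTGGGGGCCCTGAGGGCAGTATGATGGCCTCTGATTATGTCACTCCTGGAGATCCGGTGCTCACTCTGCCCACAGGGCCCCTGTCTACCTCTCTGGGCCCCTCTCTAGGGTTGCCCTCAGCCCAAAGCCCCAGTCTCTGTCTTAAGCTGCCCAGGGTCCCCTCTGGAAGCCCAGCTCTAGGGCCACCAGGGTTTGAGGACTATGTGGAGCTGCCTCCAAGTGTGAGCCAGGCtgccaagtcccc
Csf2rb2, bases before the shared stretch: ccaatgactctt
Csf2rb2, bases after the shared stretch: agccacgtcccc

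Promoter windows from RefSeq (build GRCm38.p6, 250 bases before to 50 after the start of transcription) were at hand for 4 of the 7 genes, Csf1, Csf2ra, Csf2rb2 and Csf3r. Il34, Csf1r and Csf2rb are named only. The windows of the 3 receptor genes are shown because these genes rose together after TBI, and because each held the purine-rich core GAGGAAG, or CTTCCTC on the other strand, which is printed in capitals. That core resembles the site known for PU.1, the myeloid transcription factor encoded by Spi1. It was picked after the sequences had been seen.
Csf2ra, chr19:61228369-61228668, minus strand: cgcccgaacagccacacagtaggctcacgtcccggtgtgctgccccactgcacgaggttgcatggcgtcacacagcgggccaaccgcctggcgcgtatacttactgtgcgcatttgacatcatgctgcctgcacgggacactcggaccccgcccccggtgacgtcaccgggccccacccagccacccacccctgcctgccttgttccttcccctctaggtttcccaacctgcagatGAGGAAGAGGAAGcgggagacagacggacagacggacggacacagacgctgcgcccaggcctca
Csf2rb2, chr15:78305672-78305971, minus strand: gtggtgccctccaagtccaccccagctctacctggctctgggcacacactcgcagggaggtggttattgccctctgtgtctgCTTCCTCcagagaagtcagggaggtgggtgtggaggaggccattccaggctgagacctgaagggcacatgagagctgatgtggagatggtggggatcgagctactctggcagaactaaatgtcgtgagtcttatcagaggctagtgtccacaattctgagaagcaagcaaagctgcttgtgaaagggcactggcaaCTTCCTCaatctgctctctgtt
Csf3r, chr4:126024409-126024708, plus strand: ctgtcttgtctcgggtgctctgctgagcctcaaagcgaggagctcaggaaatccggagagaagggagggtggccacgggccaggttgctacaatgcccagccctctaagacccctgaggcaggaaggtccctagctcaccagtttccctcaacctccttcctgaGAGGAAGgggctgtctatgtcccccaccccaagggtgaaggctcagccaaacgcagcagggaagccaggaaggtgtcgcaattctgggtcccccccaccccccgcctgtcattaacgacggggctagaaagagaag
Csf2ra held 2 overlapping copies, beginning 14 and 8 bases before the start of transcription. In Csf2rb2 the core stood on the reverse strand, 168 bases before and 28 bases after the start, and in Csf3r it began 86 bases before the start. The window of Csf1, a gene that also rose after TBI, held 0 copies and is not shown. Of all 32851 RefSeq promoter windows 13.6% held the core on either strand. Counted by gene, 16.0% of the 13268 genes tested in 2018 that had a window held it in any of their windows. A match is therefore a description of these letters and not a site.

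The first comparison asked how the ligands and receptors differed between injured and sham tissue. All 7 genes differed after TBI at an adjusted p under 0.05 in edgeR's quasi-likelihood test: Csf1 and the 5 receptor genes rose and Il34 fell. Of all 19536 genes tested 28% passed in either direction, 16.8% as higher and 11.2% as lower, and 39.6% had an unadjusted p under 0.05. A rise of at least 2-fold was found in 5 of the 7, Csf1, Csf1r, Csf2rb, Csf2rb2 and Csf3r, and in 8.73% of all genes. A rise of at least 8-fold was found in the last 3 of these, and in 1.92% of all genes. The median log2 fold change of the 7 genes was 1.81, against 0.02 over all genes tested. Csf2 and Csf3 were too low to test and are not counted among the 7. In every one of the 7 genes the 3 TBI libraries lay wholly outside the range of the 3 sham libraries, which was true of 44.4% of all genes tested. This is bulk tissue, so more cells of a type and more RNA per cell cannot be told apart.

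**Figure D1:**
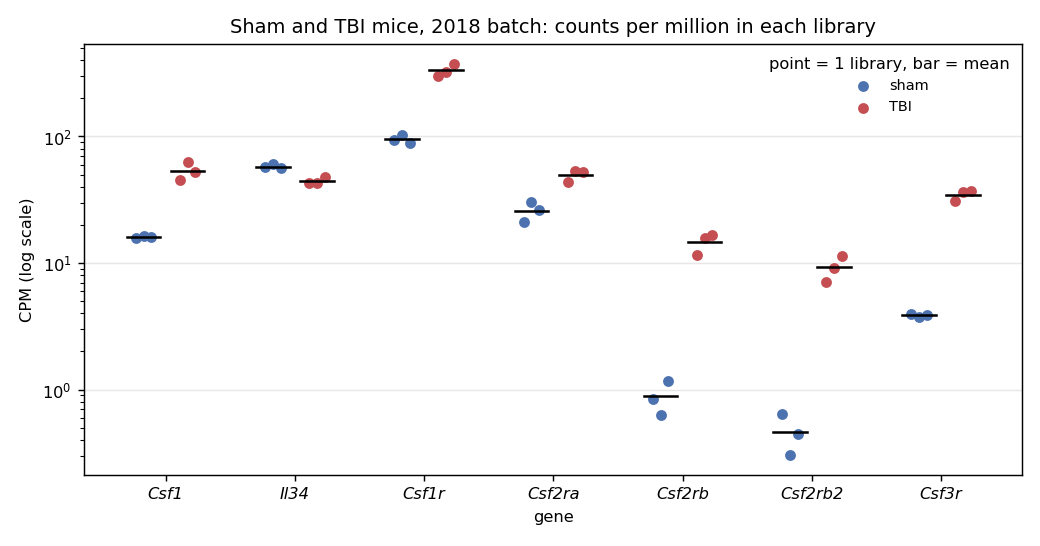
CPM of the 7 genes in each sham and TBI library of the 2018 set, on a log axis, with points for libraries and lines for group means. No TBI library overlaps the sham libraries for any gene, and Il34 is the gene whose TBI libraries lie lower.

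Among the ligands, Csf1 stood at 15.7, 16.4 and 16.0 CPM (read counts scaled to a common library size) in the sham libraries and at 45.6, 63.0 and 52.0 CPM after TBI. The sham libraries were nearly alike and the TBI libraries were all higher, TBI library 2 most so. This was a rise of 3.35-fold, or 1.74 on the log2 scale (SE 0.121, 95% interval 1.47 to 2.02, adjusted p = 2.43e-05). Il34 moved the other way, from 57.2, 60.3 and 56.0 CPM in sham to 42.7, 42.9 and 47.4 CPM after TBI. Its log2 fold change was -0.38 (SE 0.0771, 95% interval -0.56 to -0.21, adjusted p = 0.00653), a difference of -23.3%. Compared with the other 6 genes this change was small, but the lowest sham library still exceeded the highest TBI library. Neuronal markers stood lower in the same libraries, their summed level being 10870 to 11044 CPM in sham and 6510 to 9106 CPM after TBI. Of 8 neuronal markers tested 3 fell, Rbfox3, Snap25 and Syt1, and the median log2 fold change of the list was -0.44. The part of neuronal RNA in the Il34 result was not tested.

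The balance between the ligands of Csf1r was taken as a ratio within each library. The log2 ratio of Csf1 to Il34 CPM was -1.87, -1.88 and -1.81 in the sham libraries and 0.10, 0.55 and 0.13 in the TBI libraries. Its mean was 2.11 higher after TBI, and the exact two-sided permutation test gave p = 0.1, the smallest that 3 libraries against 3 allow (adjusted p = 0.3 over the 12 ratio tests made). Per unit of transcript length, as the ratio of FPKM, Csf1 stood at 0.103 ± 0.00263 of Il34 in sham and at 0.450 ± 0.0825 after TBI (SD, n = 3). Il34 thus remained the more abundant ligand transcript per length in each of the 6 libraries.

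Csf1r encodes the receptor of both ligands. Its gene, at chr18:61100598-61132149 on the plus strand of GRCm38, overlaps Hmgxb3 on the opposite strand. It was at 94.3, 103 and 88.2 CPM in sham and 303, 321 and 377 CPM after TBI, with a wide gap between the groups. The rise was 3.50-fold (log2 1.81, SE 0.103, 95% interval 1.57 to 2.04, adjusted p = 1.19e-05). The log2 ratio of receptor to ligand was 2.57 ± 0.0952 in sham and 2.64 ± 0.265 after TBI, a difference of 0.07 that lay within the spread between libraries (exact permutation p = 0.7, adjusted p = 0.84). Without TBI library 3 that difference was -0.03.

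Csf1r is itself a gene of microglia and macrophages, so it was set beside their markers. All 11 homeostatic microglia markers rose, with a summed level of 284 to 335 CPM in sham and 803 to 1158 CPM after TBI. Relative to the mean log2 level of these markers, Csf1r stood at 1.93 ± 0.0543 in sham and 2.34 ± 0.0394 after TBI, a difference of 0.41 (exact permutation p = 0.1, adjusted p = 0.3). Against Cx3cr1 alone, the gene of the fractalkine receptor, the difference was -0.11 instead (exact permutation p = 0.2), an alternative chosen after the data had been seen. Cx3cr1 rose by 1.91 on the log2 scale, about as much as Csf1r, whereas P2ry12, a purine receptor of resting microglia, rose by only 0.31 (adjusted p = 0.0382). Whether Csf1r changed relative to microglial RNA therefore depended on the markers used.

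Csf2ra showed the smallest rise. Its sham libraries stood at 21.2, 30.3 and 26.1 CPM and its TBI libraries at 43.5, 53.4 and 52.7 CPM, a rise of 1.93-fold (log2 0.95, SE 0.138, 95% interval 0.63 to 1.26, adjusted p = 0.00129). The beta chain Csf2rb was scarce in sham, with 38, 29 and 56 counts, and had 569, 763 and 711 counts after TBI. In CPM these were 0.843, 0.627 and 1.18 against 11.6, 15.7 and 16.5, so that even the lowest TBI library was far above the highest sham library. The rise was 16.4-fold (log2 4.04, SE 0.256, 95% interval 3.46 to 4.62, adjusted p = 1.75e-05). Csf2rb2 went from 29, 14 and 21 counts to 347, 447 and 492 counts, that is from 0.644, 0.303 and 0.442 CPM to 7.05, 9.17 and 11.4 CPM. Its rise of 19.8-fold (log2 4.31, SE 0.310, 95% interval 3.61 to 5.01, adjusted p = 2.84e-05) was the largest of the 7 genes. Of all genes tested, 161 had a larger log2 fold change than Csf2rb2 and 192 a larger one than Csf2rb. With so few sham reads these folds are less certain than those of the other genes, and on the log2(FPKM + 1) scale, which compresses low levels, both log2 differences were 1.43.

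Because the beta chain genes share stretches of sequence, they were also summed, an alternative added after the data had been seen. Their sum was 1.35 ± 0.367 CPM in sham and 23.8 ± 4.74 CPM after TBI (SD, n = 3), a rise of 17.6-fold (log2 4.14, SE 0.238, adjusted p = 1.23e-05). Csf2rb2 held between 27.3% and 43.3% of the summed counts in sham and between 36.9% and 40.9% after TBI. The groups overlapped in this share, and the log2 ratio of Csf2rb2 to Csf2rb differed by 0.28 (exact permutation p = 0.5, adjusted p = 0.75). With 0.5 CPM added to both levels the difference in that ratio was -0.12.

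The alpha and beta chains of the receptor for granulocyte-macrophage colony-stimulating factor were compared in the same way. The log2 ratio of Csf2rb to Csf2ra CPM was -4.65, -5.59 and -4.47 in sham and -1.91, -1.77 and -1.67 after TBI. Its mean was 3.12 higher after TBI, without overlap (exact permutation p = 0.1, adjusted p = 0.3). In FPKM, Csf2rb stood at 0.0139 ± 0.00507 of Csf2ra in sham and 0.115 ± 0.00942 after TBI, so the alpha chain remained the more abundant transcript in both groups.

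Csf3r stood at 3.95, 3.74 and 3.85 CPM in sham and 30.7, 36.5 and 36.9 CPM after TBI. Both groups were tight, and its adjusted p of 2.35e-06 was the smallest of the 7 genes. The rise was 9.02-fold (log2 3.17, SE 0.114, 95% interval 2.91 to 3.43). Against Csf1r its log2 ratio went from -4.63 ± 0.142 to -3.26 ± 0.113, a difference of 1.37 with no overlap (exact permutation p = 0.1, adjusted p = 0.3). Neutrophil markers moved in the same libraries: their summed level was 0.951 to 1.62 CPM in sham and 17.7, 28.7 and 67.9 CPM after TBI, and 6 of the 7 tested rose, of 11 in the list. The defining marker Ly6g had 0 counts in all sham libraries and 0, 2 and 6 counts after TBI, with Cxcr2, a chemokine receptor of neutrophils, at 0 in sham and 46, 103 and 140 counts after TBI. All 11 homeostatic microglia markers rose in these libraries too, from a sum of 284 to 335 CPM in sham to 803 to 1158 CPM. The parts of neutrophils and of microglia in the Csf3r result were not tested.

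**Figure D2:**
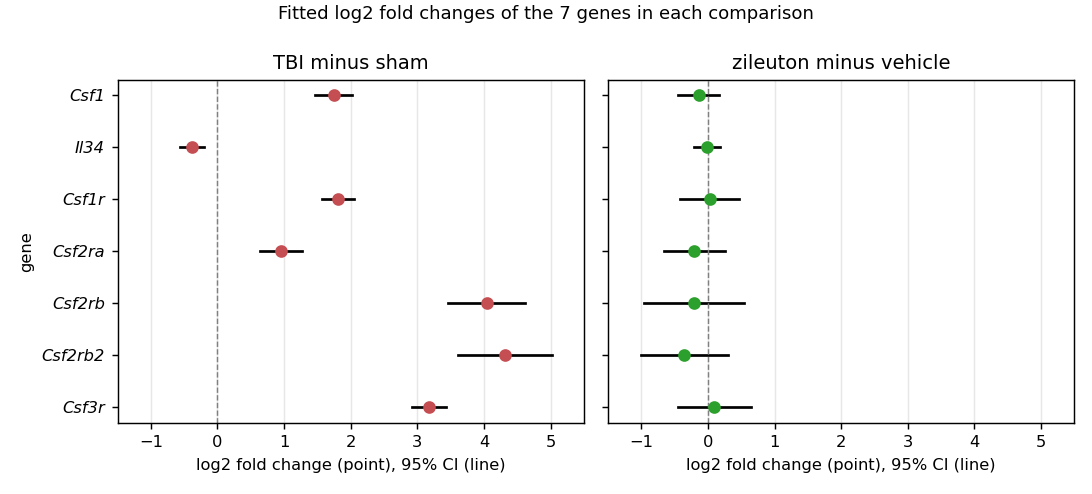
Log2 fold changes of the 7 genes with 95% intervals, for TBI minus sham and for zileuton minus vehicle. The TBI intervals exclude 0 for all 7 genes, from -0.38 for Il34 to 4.31 for Csf2rb2, whereas every zileuton interval includes 0.

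Other cell markers moved with the receptors and are given once for all of them. Of 10 markers of activated microglia and macrophages 9 rose, with a summed level of 57.3 to 62.9 CPM in sham and 505 to 730 CPM after TBI. All 6 monocyte markers rose, from 3.40 to 3.85 CPM in sum to 27.4 to 53.7 CPM, and the monocyte marker Ms4a4c had 0 counts in all sham libraries. Few lymphocyte and mast cell markers were high enough to test, 3 of 7 for T cells, 2 of 4 for B cells and 1 of 6 for mast cells and basophils, of which 2, 1 and 1 rose. Their summed levels were 8.13 to 21.5 CPM in sham and 5.89 to 30.2 CPM after TBI for T cells, 0.652 to 1.28 and 2.16 to 2.20 CPM for B cells, and 0.173 to 0.466 and 1.65 to 6.31 CPM for mast cells and basophils. Among resident cells, 6 of 7 astrocyte markers, 4 of 5 oligodendrocyte markers, 4 of 5 endothelial markers and all 5 fibroblast markers rose. Their part in the results on Csf1, Csf1r, Csf2ra, Csf2rb, Csf2rb2 and Csf3r was not tested beyond the values given above. The summed level of neuronal markers, the highest of the lists in sham, and those of astrocytes and oligodendrocytes fitted the label of brain tissue.

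Levels were ordered between genes only per transcript length. In sham tissue Il34 had the highest FPKM of the 7, at 29.0 ± 1.16 (SD, n = 3), ahead of Csf1r at 16.2 ± 1.30. Csf2ra followed at 8.85 ± 1.59, Csf1 at 2.98 ± 0.0812 and Csf3r at 1.05 ± 0.0245. Csf2rb at 0.119 ± 0.0377 and Csf2rb2 at 0.0957 ± 0.0350 came last and overlapped each other. After TBI the first places were exchanged, with Csf1r at 58.7 ± 6.32 FPKM and Il34 at 23.0 ± 1.16 FPKM. Csf2ra followed at 17.7 ± 2.10, and Csf1 at 10.3 ± 1.87 and Csf3r at 9.79 ± 1.03 could no longer be ordered, because their libraries overlapped. Csf2rb at 2.04 ± 0.375 and Csf2rb2 at 1.98 ± 0.458 remained lowest and overlapping.

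**Figure D3:**
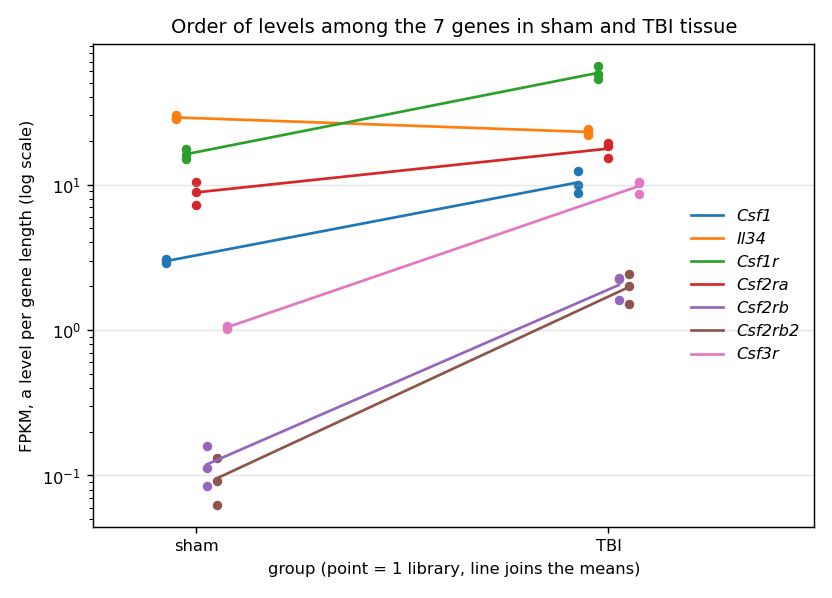
Level of each gene per transcript length in sham and TBI tissue of the 2018 set, as FPKM on a log axis, with points for libraries and lines that join the group means. Il34 is highest in sham tissue at a mean of 29.0 FPKM and Csf1r after TBI at 58.7 FPKM, and the Csf2rb and Csf2rb2 points overlap in both groups.

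The rest of the pathway was taken from a list of 51 genes in 5 role groups. Of the 45 that could be tested 32 rose, 1 fell and 12 did not pass, which is 73.3% called against the 28% of all genes, and their median log2 fold change was 1.43. Ligands for the receptors other than Csf1r were all but absent. Csf2, Csf3 and Il3, which encode granulocyte-macrophage and granulocyte colony-stimulating factor and interleukin-3, had 0 counts in all sham libraries, and none of them reached 0.1 CPM in any TBI library. Il5 stayed under 0.1 CPM in all 6 libraries, and none of these 4 genes could be tested. Csf2rb, Csf2rb2 and Csf3r rose in tissue where transcripts of their own ligands were not detectable above a few reads.

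Of the other receptors for these ligands, Il3ra, the alpha chain for interleukin-3, rose by 1.68 on the log2 scale (SE 0.280, adjusted p = 0.00262). Sdc1, a cell surface proteoglycan that binds IL-34, rose by 1.56 (SE 0.378, adjusted p = 0.0151). Ptprz1, a receptor phosphatase that also binds IL-34, had a log2 fold change of 0.30 (adjusted p = 0.0529), and Il5ra was too low to test.

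Among 21 kinases and adaptors 14 rose, 1 fell and 6 did not pass, with a median of 1.01. The 4 most abundant were among those that did not pass: the regulatory subunit Pik3r1 (log2 fold change 0.03), the kinases Jak1 (-0.05) and Src (-0.0060) and the adaptor Grb2 (-0.04), with adjusted p between 0.694 and 0.967. Among those that rose were Tyk2, Lyn, Fgr, Fes, Btk, Syk, Tyrobp, Shc1, Gab2, Plcg2, Pik3cd, Pik3cg and Vav1, with rises of 0.35 to 5.15 on the log2 scale, and most of these are known mainly from blood and myeloid cells. The member that fell was the exchange factor Sos1 (-0.36, adjusted p = 0.00759), named here after its value had been seen. Of 10 transcription factors tested 9 rose. Stat3 rose by 1.00 (SE 0.101, adjusted p = 0.000166), and Maf by 0.82, whereas Stat5b had a log2 fold change of 0.20 (adjusted p = 0.232). Spi1, singled out after its value had been seen because it encodes PU.1, rose by 2.92 (SE 0.147, adjusted p = 7.52e-06).

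Of 11 negative regulators and shedding proteases 7 rose and 4 did not pass. Inpp5d, the lipid phosphatase SHIP1 of blood cells, rose by 1.53 (SE 0.109, adjusted p = 2.75e-05), and Adam17, the protease that cuts CSF1R from the cell surface, rose by 1.35 (SE 0.0945, adjusted p = 2.47e-05). Adam10, a related protease, had a log2 fold change of 0.09 (adjusted p = 0.377), and Cbl, a ubiquitin ligase for CSF1R, had -0.09 (adjusted p = 0.532).

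**Figure D4:**
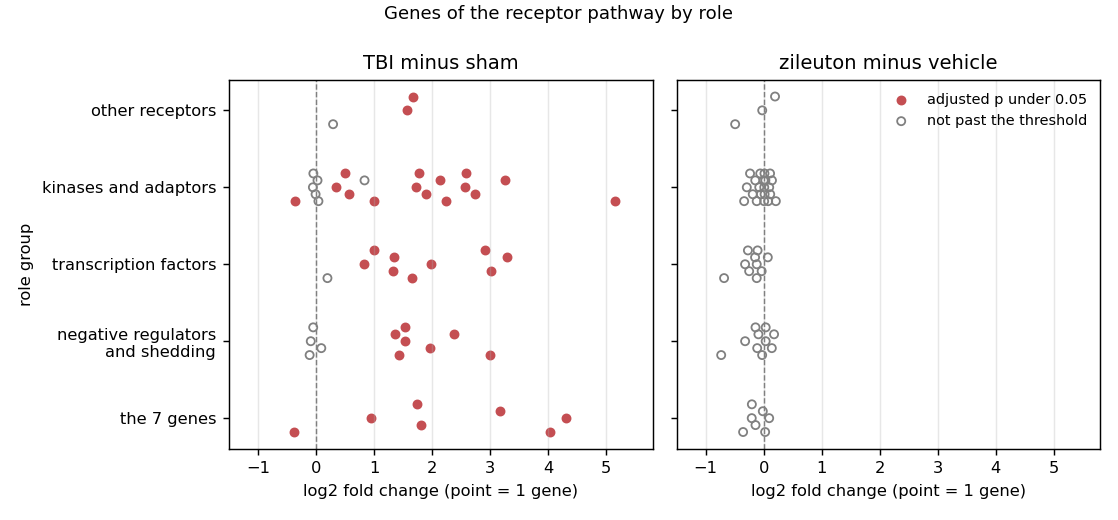
Log2 fold changes of the tested pathway genes by role group and of the 7 genes, for TBI minus sham (left) and zileuton minus vehicle (right), with 1 point per gene and filled points for an adjusted p under 0.05. After TBI 32 pathway genes rose and 1 fell, and with zileuton no point is filled.

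The second comparison asked whether the same genes differed between zileuton- and vehicle-treated mice with TBI. No difference was detected for any of them. In edgeR 0 of the 7 genes passed, the smallest unadjusted p being 0.249 for Csf2rb2, and the adjusted p ran from 0.787 to 0.977. The background was 0% as well, since 0 of 17363 genes passed, with 1186 (6.83%) at an unadjusted p under 0.05, DESeq2 calling 28 genes and limma on log2(TPM + 1) calling 4, none of them among the 7. Groups overlapped for all 7 genes, while 13.6% of all genes tested did not overlap. The median log2 fold change of the 7 was -0.14, 2 being positive and 5 negative.

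**Figure D5:**
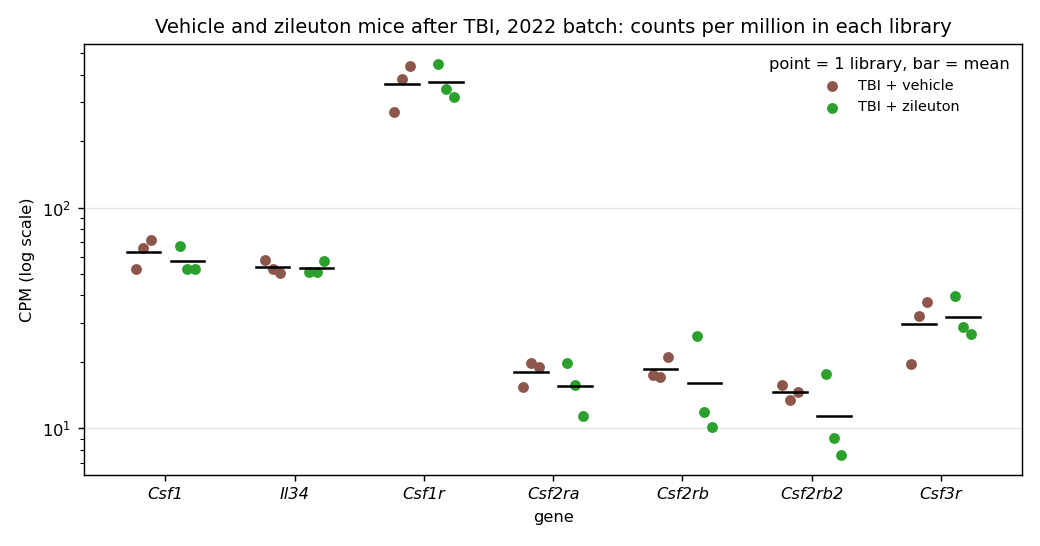
CPM of the 7 genes in each vehicle and zileuton library of the 2022 set, on a log axis, with points for libraries and lines for group means. Vehicle and zileuton libraries overlap for every gene.

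Column names of the 2022 table could be tied to a group but not to a numbered library, so the libraries are called A, B and C. Csf1 stood at 52.9, 65.3 and 71.5 CPM in vehicle and 66.7, 52.7 and 52.6 CPM in zileuton libraries, with a log2 difference of -0.14 (95% interval -0.45 to 0.17). For Il34 the values were 57.8, 52.6 and 50.7 CPM against 50.9, 51.1 and 57.5 CPM. This was the tightest of the 7, with a difference of -0.01 and an interval of -0.21 to 0.18. The log2 ratio of Csf1 to Il34 differed by -0.12 (exact permutation p = 0.8, adjusted p = 0.873).

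Csf1r stood at 271, 382 and 436 CPM in vehicle libraries and 449, 343 and 316 CPM in zileuton libraries (0.03, interval -0.41 to 0.46). Csf3r behaved alike, with 19.7, 32.3 and 37.3 CPM against 39.8, 28.7 and 26.9 CPM (0.09, interval -0.45 to 0.64). In both genes vehicle library A was the lowest of the 6 and zileuton library A the highest, so the spread within each group was larger than the difference between them. Summed homeostatic microglia markers were ordered alike within each group, at 951, 1295 and 1385 CPM in vehicle and 1334, 1100 and 990 CPM in zileuton libraries. Relative to these markers Csf1r differed by 0.08 (exact permutation p = 0.6, adjusted p = 0.8), and relative to Cx3cr1 alone by -0.07.

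Csf2ra stood at 15.3, 19.8 and 18.9 CPM in vehicle and 19.8, 15.7 and 11.3 CPM in zileuton libraries, a difference of -0.21 (interval -0.66 to 0.25). In TPM, which also uses an estimated transcript length, its difference was 0.12. Csf2rb stood at 17.5, 17.1 and 21.0 CPM against 26.3, 11.8 and 10.1 CPM (-0.20, interval -0.95 to 0.54). Csf2rb2 stood at 15.8, 13.4 and 14.6 CPM against 17.6, 9.02 and 7.56 CPM (-0.35, interval -1.01 to 0.30). For both beta chains zileuton library A was above all vehicle libraries and zileuton libraries B and C were below them.

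The beta chain reads of the 2022 set had been divided between the copies by estimation. The 2 estimated counts were fractional in each library, yet their sum was a whole number (within 0.005) in 5 of 6 libraries, for example 509.74 and 460.26 adding to 970. Summed, the pair stood at 33.1 ± 2.61 CPM in vehicle and 27.5 ± 14.3 CPM in zileuton libraries, a log2 difference of -0.27 (interval -0.96 to 0.43, adjusted p = 0.843).

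Leaving out single libraries moved several of these values. In edgeR without zileuton library A, the log2 difference was -0.75 for Csf2rb (unadjusted p = 0.000847) and -0.81 for Csf2rb2 (unadjusted p = 0.000478). For Csf2ra it was -0.41 (unadjusted p = 0.0477). Still none passed after adjustment over all genes (adjusted p = 0.298 for both beta chains and 0.458 for Csf2ra). In that fit 1909 of 17632 genes tested had an unadjusted p under 0.05, against 1186 of 17363 with every library kept. Csf1r stood at -0.14 and Csf3r at -0.10 without zileuton library A. Without vehicle library A they stood at -0.15 and -0.13, so neither had a settled sign. The difference of Csf2rb was 0.05 without zileuton library C.

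Pathway genes gave the same picture, with 0 of 44 tested genes passing, 0 at an unadjusted p under 0.05 and a median log2 fold change of -0.05. Csf2 and Il3 had 0 counts in all 6 libraries, and Csf3 had counts in 1 vehicle library alone. No marker list held a gene that passed. At an unadjusted p under 0.05 the monocyte list had 2 genes, the astrocyte list 1 and the endothelial list 1, and the median log2 fold change of the 6 monocyte markers was -1.12, with 5 of them negative. The neutrophil markers summed to 4.71 to 7.26 CPM in vehicle and 1.74 to 8.62 CPM in zileuton libraries, with Ly6g at 0 in all 6.

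Per length, in TPM, the vehicle libraries had Csf1r first at 321 ± 45.3, then Il34 at 85.4 ± 12.2. Csf1 at 29.4 ± 4.05 and Csf2ra at 24.5 ± 1.18 overlapped, as did Csf3r at 17.3 ± 4.64 and Csf2rb at 11.1 ± 1.35, and Csf2rb2 was lowest at 5.62 ± 0.788 (SD, n = 3). With zileuton the order was the same, from 380 ± 85.9 for Csf1r to 4.48 ± 2.21 for Csf2rb2, but Csf3r, Csf2rb and Csf2rb2 overlapped in turn.

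To describe which other genes had patterns like these, log2 CPM was centred within each sequencing set and genes were ranked by their root-mean-square difference from each of the 7 over the 12 libraries, among 16366 genes tested in both sets. Closest to Csf1 were Rps6ka1 (0.0864), Slco2b1 and Apod, and closest to Il34 were Sept11 (0.0397), AW209491 and Shoc2. Nearest to Csf1r came Fgd2 (0.0661), Hexa (0.0669), which encodes a lysosomal hexosaminidase subunit, and Tep1. Csf2ra was most like 1700017B05Rik (0.128), Plod3 and Nfkbia, the gene of an inhibitor of NF-kappa-B. For Csf2rb these were Lrrc25 (0.188), the class I histocompatibility gene H2-K1 and Neurl3. Csf2rb2 had Fcgr2b (0.251), an inhibitory Fc receptor gene, its own copy Csf2rb (0.258) and Pirb. Csf3r was closest to Tent5c (0.147), Unc93b1 and Irf8 (0.157), a transcription factor gene of myeloid cells. Over all genes the median difference ran from 0.243 for Il34 to 1.60 for Csf2rb2. The 12 libraries share their set and group structure, so the ranking mostly reflects the size of the TBI difference.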

How the data were processed

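Bulk polyA RNA-seq of 12 mouse brain libraries was used, 3 in each of 4 groups taken from the labels. The 2018 table, as deposited, holds read counts per Ensembl gene and FPKM computed by the authors. The 2022 table, as deposited by the authors, holds estimated counts per gene (32.2% of values above 0 are fractional) and TPM, the program behind them being not given in the sources used here. These estimated counts were rounded, although whole counts had been planned for. CPM uses the TMM-scaled library size. The submitters' processing notes name HISAT2, featureCounts of Subread, DESeq2 and GRCm39, with no version. No columns of the authors' own comparisons were used. Library totals were 42929862 to 48684674 in 2018 and 27845562 to 35453257 in 2022, so counting error was small except for Csf2rb and Csf2rb2 in sham. Among counts above 0 and no higher than 20 in the 2018 libraries, even values made up 62.3% to 64.4%, as when both mates are counted, and counts divided by 2 were tried.

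Each set was fitted on its own with edgeR 4.0.16 in R 4.3.3 (filterByExpr, TMM, glmQLFit, glmQLFTest), Benjamini-Hochberg over all genes tested, called at an adjusted p under 0.05. SE is the log2 fold change divided by the square root of F, and 95% intervals use the moderated t distribution. Ratios within libraries were compared by exact two-sided permutation tests over the 20 splits. limma 3.58.1 on log2(FPKM or TPM + 1) and DESeq2 1.42.0 were alternatives. Scripts were tested on simulated data. Positions came from GENCODE M21 (GRCm38), another build than the notes name, and are therefore not those of the counting. Named genes were the 7 genes, up to 4 of highest mean CPM per pathway role group with all of the ligand and receptor groups, up to 3 per marker list, and the 3 most alike genes per member. Rbfox3, P2ry12, Ms4a4c, Ly6g, Sos1, Spi1 and the other kinases that rose were named after their values were seen. Some genes of the lists are counted but not reported here by name. The members and all lists (the pathway, and markers of glia, neurons, vessels, fibroblasts and blood cells) were chosen with earlier results of these data known.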

Additional observations from a re-analysis of the deposited data

How the results depend on the processing

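In the TBI comparison all 7 genes kept their direction and passed in each of 18 alternatives, with adjusted p up to 0.0370. The count of genes called was 5479, ranging from 3848 to 4956 with 1 library left out. It was 2625 by the study's two-sample test on FPKM after adjustment over all genes (5832 at an unadjusted p under 0.05, the threshold the study states). The share of calls that were higher was 60.0%, and 71.5% by limma without a filter. Reversed values were -0.12 for the ratio of Csf2rb2 to Csf2rb with log2(CPM + 0.5), and -0.11 for Csf1r against Cx3cr1 alone (-0.068 in the zileuton comparison), the latter chosen after seeing the data in place of a pair of markers that is not reported here. With 1 library left out, the ratio of Csf1r to Csf1 ran from -0.033 to 0.22. In the zileuton comparison 0 of the 7 genes passed in any of 17 alternatives. In place of 0, genes called were 28 with DESeq2, 4 without a filter, 4 by limma on log2(TPM + 1) and 3 on log2(TPM + 0.1). Signs turned for Il34 (0.11, 0.12, 0.11 without a filter and 0.11 by the study's test) and Csf2ra (0.12, 0.12, 0.12 and 0.12) in TPM, and for the ratio of Csf3r to Csf1r (-0.10 in TPM). With 1 library left out the ranges were -0.071 to 0.042 for Il34, -0.15 to 0.18 for Csf1r, -0.13 to 0.29 for Csf3r and -0.75 to 0.047 for Csf2rb. They were -0.30 to 0.011 for the ratio of Csf1 to Il34, -0.33 to 0.077 for Csf2rb to Csf2ra, and -0.0073 to 0.13 for Csf1r against the microglia markers. The cause was not tested. Same-numbered libraries did not clearly deviate together (correlations -0.15 to -0.02 in 2018 and -0.37 to 0.05 in 2022). With 3 libraries per group this cannot exclude that same-numbered libraries were handled together. With the replicate number as a block, 4337 genes and all 7 of the family were called after TBI, and 0 with zileuton (729 at an unadjusted p under 0.05, against 1186). Depth limits Csf2rb and Csf2rb2 in sham and the ligands Csf2, Csf3, Il3 and Il5.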
